A study of Homo sapiens with 6 samples.

Results

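Transcripts of 10 tubulin genes, 4 alpha (TUBA1A, TUBA1B, TUBA1C and TUBA4A) and 6 beta (TUBB, TUBB2A, TUBB2B, TUBB3, TUBB4B and TUBB6), were followed in Caco-2 cells with and without a knockout of CBS. They were chosen by symbol, and all 10 were found among the 16781 genes of the deposited table and had enough reads to be tested. Caco-2 is an established human cell line, derived from a colon carcinoma, whose cells can form an enterocyte-like layer. The 3 WT libraries came from cells that had not been modified. The 3 CBS KO libraries came from cells infected with a lentivirus carrying Cas9, a guide against CBS and a puromycin resistance gene, and kept as puromycin-resistant cells; no clone is named. Knockout, infection and selection therefore differ between the groups together and cannot be told apart.

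Alpha- and beta-tubulin pair into the dimers from which microtubules are built. In enterocytes microtubules run from the apical side to the base and carry vesicles to both surfaces, and in dividing cells they form the spindle. Vertebrates have several genes of each kind (isotypes), whose proteins are nearly alike in the folded body and differ mostly in the acidic tail at the carboxyl end. That tail points away from the microtubule and is where glutamate chains are added and where the last tyrosine of alpha-tubulin is removed and put back. Cells also adjust tubulin mRNA to the amount of free dimer: the protein TTC5 recognises the opening residues of a tubulin as it leaves the ribosome, and the mRNA is then degraded.

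Stretches from both ends of the coding sequence are shown, the start because it is what the autoregulation reads and the end because many isotypes differ there. Sequences were read from GENCODE release 29 transcripts (GRCh38), 5′ to 3′. The first 24 coding bases of the most abundant alpha and beta gene are given with the 12 that encode the recognised residues in capitals.
TUBA1B: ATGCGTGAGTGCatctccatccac
TUBB: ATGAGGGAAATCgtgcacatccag
The 4 alpha genes all open with codons for methionine, arginine, glutamate and cysteine, and the 6 beta genes with codons for methionine, arginine, glutamate and isoleucine. These alpha and beta genes thus carry the opening to which the autoregulation applies. Its part in their changes was not tested.

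The last 60 coding bases before the stop codon follow for 4 beta genes, with the final codon in capitals. Each stretch lies in exon 4, the last exon of the transcript.
TUBB2A: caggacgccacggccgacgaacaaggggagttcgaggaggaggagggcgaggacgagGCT
TUBB2B: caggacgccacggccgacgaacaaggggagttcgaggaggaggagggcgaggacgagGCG
TUBB4B: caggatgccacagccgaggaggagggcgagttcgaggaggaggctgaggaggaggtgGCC
TUBB3: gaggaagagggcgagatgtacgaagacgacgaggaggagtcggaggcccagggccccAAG
They lie at chr6:3153866-3153925 (minus strand) for TUBB2A, chr6:3224754-3224813 (minus) for TUBB2B, chr9:137243494-137243553 (plus) for TUBB4B and chr16:89935742-89935801 (plus) for TUBB3. The ends of TUBB2A and TUBB2B differed at 1 of the 60 bases. Among the last 20 codons of TUBB4B 11 encode an acidic residue.

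Over the whole coding sequence TUBA1A and TUBA1B are 97.2% identical, TUBA1B and TUBA1C 96.8%, and TUBB2A and TUBB2B 98.2%, whereas TUBB shares 80.9 to 84.7% with the other beta genes. A window of 150 bases, the length of 1 read, was found without mismatch in a transcript of another gene for 49.4% of windows in TUBB2A, 39.4% in TUBB2B, 19.2% in TUBA1B, 6.91% in TUBA1A, 6.77% in TUBA1C and 2.50% in TUBB, and for 0% in TUBA4A, TUBB4B and TUBB6. For TUBB3 the share was 88.7%, and the gene that shared most was AC092143.1, a GENCODE gene annotated across the same stretch of chromosome 16. The deposited counts of TUBA4A, TUBB and TUBB6 were whole numbers in all 6 libraries, that of TUBB4B in 5 and that of TUBB3 in 1, and those of TUBA1A, TUBA1B, TUBA1C, TUBB2A and TUBB2B in 0. The split of reads among the 3 TUBA1 genes and between TUBB2A and TUBB2B is therefore uncertain, and that of TUBB3 depends on how the overlapping gene was treated.

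Libraries held 12805168 to 16176756 estimated counts. CBS itself, the check of the labels, stood at 48.8, 53.0 and 50.6 scaled counts (CPM, on the TMM scale that corrects for differences in library make-up) in WT replicates 1 to 3 and at 24.6, 18.5 and 25.4 CPM in CBS KO. It was 2.22-fold lower (log2 fold change -1.15, adjusted p = 1.18e-08 by edgeR's quasi-likelihood test with Benjamini-Hochberg adjustment over 13028 genes, used for every adjusted p below unless another fit is named). As a check of the labels this is weak, since 23.5% of all tested genes were called and changed at least 2-fold. The deposited counts of CBS were whole numbers in 0 libraries. No label states that replicates were separate cultures. The p-values therefore refer only to the spread between these samples, and that spread may be technical. The 8 epithelial markers summed to 6869 to 7463 CPM in WT and 9069 to 9851 CPM in CBS KO. Of these 6 rose and 1 fell with TMM, and with TPM 2 were higher and 4 lower (38.4 and 38.9% of all genes with TMM, 15.3 and 67.6% with TPM). With TMM EPCAM was 2.12-fold higher, CDH17 went from 614 ± 16.7 to 983 ± 14.9 CPM (not called with TPM), KRT8 was 1.42-fold higher (not called with TPM, log2 fold change -0.080) and VIL1 1.25-fold lower. The 9 measured markers of fibroblasts and immune cells summed to 237 to 266 and 275 to 299 CPM, most of it COL1A1 (197 ± 14.7 and 181 ± 8.21 CPM) and CD68. Of the 5 tested LYZ and CD68 were 3.20-fold and 2.79-fold higher, PDGFRB was 4.04-fold lower, COL3A1, named after its value was seen, was 3.51-fold lower, and COL1A1 was not called (adjusted p = 0.0897; called lower without WT replicate 3 at 0.0180, without CBS KO replicate 1 at 0.0271, without CBS KO replicate 3 at 0.0328, and with no filter on low counts, the library total, FPKM or TPM). The other markers, COL1A2, VIM, PTPRC and CD3E, had 0 to 10 counts over the libraries of a group. The part of these differences in the results on tubulin was not tested. The scaling moved all genes together. Over the 13028 genes tested the median log2 fold change lay at -0.01 under TMM scaling, and scaling by library total put it at -0.36. It lay at -0.32 on FPKM (11880 genes) and at -0.54 on TPM (12274 genes), over genes reaching 1 in 3 libraries. With unfiltered TPM (16779 genes) it was -0.28.

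Levels of different genes were compared in TPM, the deposited unit that allows for transcript length. In WT the order ran TUBA1B (2439 ± 191 TPM), TUBB (1332 ± 44.2), TUBB4B (1025 ± 22.1), TUBA1C (452 ± 19.3), TUBB2B (123 ± 2.89), TUBB2A (51.1 ± 0.67), TUBB6 (38.3 ± 4.29), TUBA4A (17.2 ± 2.88), TUBB3 (11.97 ± 0.46) and TUBA1A (3.05 ± 0.42, SD, n = 3). No neighbours in that order overlapped between WT libraries. In CBS KO the order was TUBA1B (1245 ± 31.2 TPM), TUBB (767 ± 12.2), TUBB4B (298 ± 27.8), TUBA1C (245 ± 16.1), TUBB2B (164 ± 2.72), TUBB2A (51.2 ± 3.72), TUBA4A (21.3 ± 1.73), TUBB6 (19.6 ± 0.68), TUBB3 (16.1 ± 0.38) and TUBA1A (10.5 ± 0.65). The libraries of TUBA4A and TUBB6 overlapped there, at 20.1 to 23.3 and 18.9 to 20.3 TPM, and had not in WT. By mean TPM, TUBA1B ranked 66 of all genes in WT and 116 in CBS KO, and TUBB4B ranked 124 and 376.

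**Figure D1:**
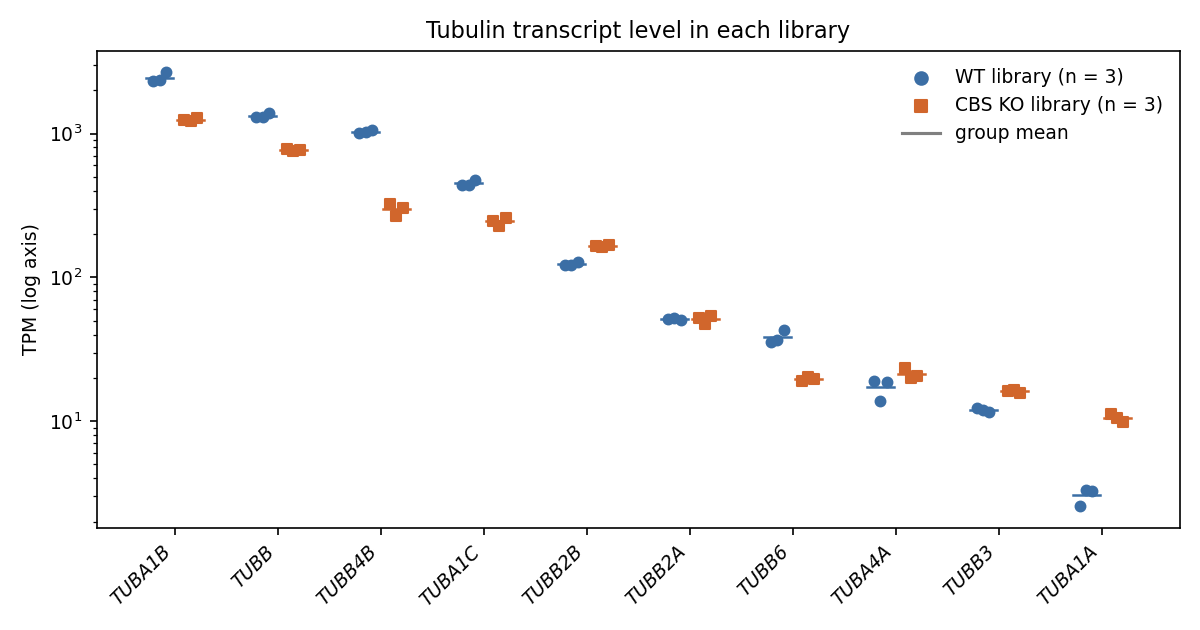
TPM (log axis) of each tubulin gene in the 3 WT libraries (circles) and 3 CBS KO libraries (squares), with group means as lines, ordered by WT level. The 4 most abundant genes lie lower in CBS KO, TUBB2A lies level at 51.1 and 51.2 TPM, and TUBB2B, TUBA4A, TUBB3 and TUBA1A lie higher.

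Tested on counts, the family was split evenly: 5 genes rose in CBS KO (TUBA1A, TUBA4A, TUBB2A, TUBB2B and TUBB3) and 5 fell (TUBA1B, TUBA1C, TUBB, TUBB4B and TUBB6). Of all 13028 genes tested 77.2% were called, 38.4% as higher and 38.9% as lower, so a count of 5 and 5 is near what the background gives. With the library total 5 were again higher and 5 lower (22.8 and 56.8% of all genes), likewise with FPKM (22.9 and 57.9%), and with TPM 4 were higher and 5 lower (15.3 and 67.6%). The groups of libraries did not overlap for any of the 10, as for 79.1% of all tested genes. The median log2 fold change of the 10 was 0.20 with TMM and turned to -0.16 with the library total and -0.40 with TPM, against medians of -0.36 and -0.54 over all genes. Messenger RNA of many cells of the line together was measured, so fewer cells making a transcript and less of it per cell cannot be told apart.

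TUBA1B, the main alpha gene, gave 1656, 1684 and 1906 CPM in WT and 1241, 1304 and 1483 CPM in CBS KO. Replicate 3 was the highest of each group, and the highest CBS KO library lay below the lowest WT library. TUBA1B fell 1.30-fold (log2 fold change -0.38, SE 0.08, adjusted p = 0.000413). TUBA1C, its close copy with the same opening bases, had 450, 442 and 484 CPM in WT and 339, 338 and 409 CPM in CBS KO. It fell 1.27-fold (log2 fold change -0.34, SE 0.07, adjusted p = 0.000481).

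TUBA1A is the alpha gene best known from developing neurons. It stood at 1.92, 2.47 and 2.57 CPM in WT and at 11.8, 12.3 and 12.3 CPM in CBS KO, from 126 counts over the WT libraries and 436 over the CBS KO libraries. All CBS KO libraries were well above all WT libraries, and the rise of 5.21-fold (log2 fold change 2.38, SE 0.14, adjusted p = 1.23e-10) was the largest of the 10. It ran opposite to the change of TUBA1B, its near-identical copy, while its reads were few beside those of TUBA1B. What part misassigned reads had was not tested. TUBA4A, an alpha gene on chromosome 2, had 14.9, 10.9 and 13.9 CPM in WT and 22.6, 22.2 and 24.0 CPM in CBS KO. WT replicate 2 was the lowest of the 6. TUBA4A rose 1.74-fold (log2 fold change 0.80, SE 0.11, adjusted p = 3.37e-06), and it shares no 150-base window with another gene.

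Among the beta genes TUBB4B moved furthest down. TUBB4B encodes the class IVb isotype, which is widely expressed and is used in the axonemes of cilia. Its libraries held 688, 695 and 716 CPM in WT against 307, 272 and 337 CPM in CBS KO. The highest CBS KO library was below 350 CPM and the groups were far apart. TUBB4B fell 2.29-fold (log2 fold change -1.19, SE 0.07, adjusted p = 2.19e-10), and with the library total, FPKM and TPM the log2 fold change was -1.55, -1.55 and -1.78. No window of it is shared with another gene.

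TUBB, the class I isotype and the main beta gene here, had 1559, 1554 and 1646 CPM in WT and 1307, 1341 and 1475 CPM in CBS KO. CBS KO replicate 3 came closest to WT. The fall of 1.15-fold was the smallest of the 10 (log2 fold change -0.21, SE 0.07, adjusted p = 0.0126); without WT replicate 3 the adjusted p was 0.0554 and without CBS KO replicate 2 it was 0.0648. With TPM its log2 fold change was -0.79, which is -0.25 against the median of all genes. TUBB6, the class V isotype, stood at 25.1, 24.5 and 30.5 CPM in WT and 18.0, 21.1 and 21.4 CPM in CBS KO. WT replicate 3 was the highest. TUBB6 fell 1.32-fold (log2 fold change -0.40, SE 0.10, adjusted p = 0.00155).

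TUBB2B and TUBB2A, neighbouring genes on chromosome 6 that encode the class II isotypes abundant in brain, both rose on the TMM scale. TUBB2B had 107, 107 and 111 CPM in WT and 202, 211 and 236 CPM in CBS KO. It rose 2.00-fold (log2 fold change 1.002, SE 0.06, adjusted p = 3.9e-10) and was still higher with TPM (log2 fold change 0.41, adjusted p = 7.09e-06 by limma). TUBB2A had 36.4, 36.9 and 35.9 CPM in WT and 52.6, 50.2 and 62.4 CPM in CBS KO. Its libraries were tight in WT and spread more in CBS KO, where replicate 3 was the highest. TUBB2A rose 1.51-fold with TMM (log2 fold change 0.60, SE 0.08, adjusted p = 3.97e-06), but with TPM its log2 fold change was -0.00095 (adjusted p = 0.991 by limma), so its direction rests on the scaling. Against the median of all genes it stood at 0.61 with TMM and 0.54 with TPM. Since the pair shares so many windows, their sum was taken too: 143, 144 and 147 CPM in WT and 255, 262 and 299 CPM in CBS KO, which is 1.88-fold higher. In TPM the sum was 175 ± 2.35 and 216 ± 6.32, which is 1.23-fold higher.

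TUBB3, the class III isotype by which neurons are commonly stained and which many tumour cells also make, had 9.45, 9.16 and 8.74 CPM in WT and 17.3, 18.7 and 19.4 CPM in CBS KO. The lowest CBS KO library was above the highest WT library by more than either group's range. TUBB3 rose 2.02-fold (log2 fold change 1.02, SE 0.10, adjusted p = 5.17e-08) and was also higher with TPM (log2 fold change 0.40, adjusted p = 0.000705 by limma). Markers of neurons were at the edge of detection in both groups: of 8 listed, 4 were in the table and 1 could be tested, and their sum was 1.09 to 1.48 CPM in WT and 1.48 to 2.44 CPM in CBS KO. MAP2 had 2 counts over the WT libraries and 4 over the CBS KO libraries, DCX 1 and 0, and RBFOX3 0 and 1, while a count of 0 in a library allows up to 0.164 to 0.264 CPM (counting error only). SYP, the marker that could be tested, was not called (adjusted p = 0.0854).

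**Figure D2:**
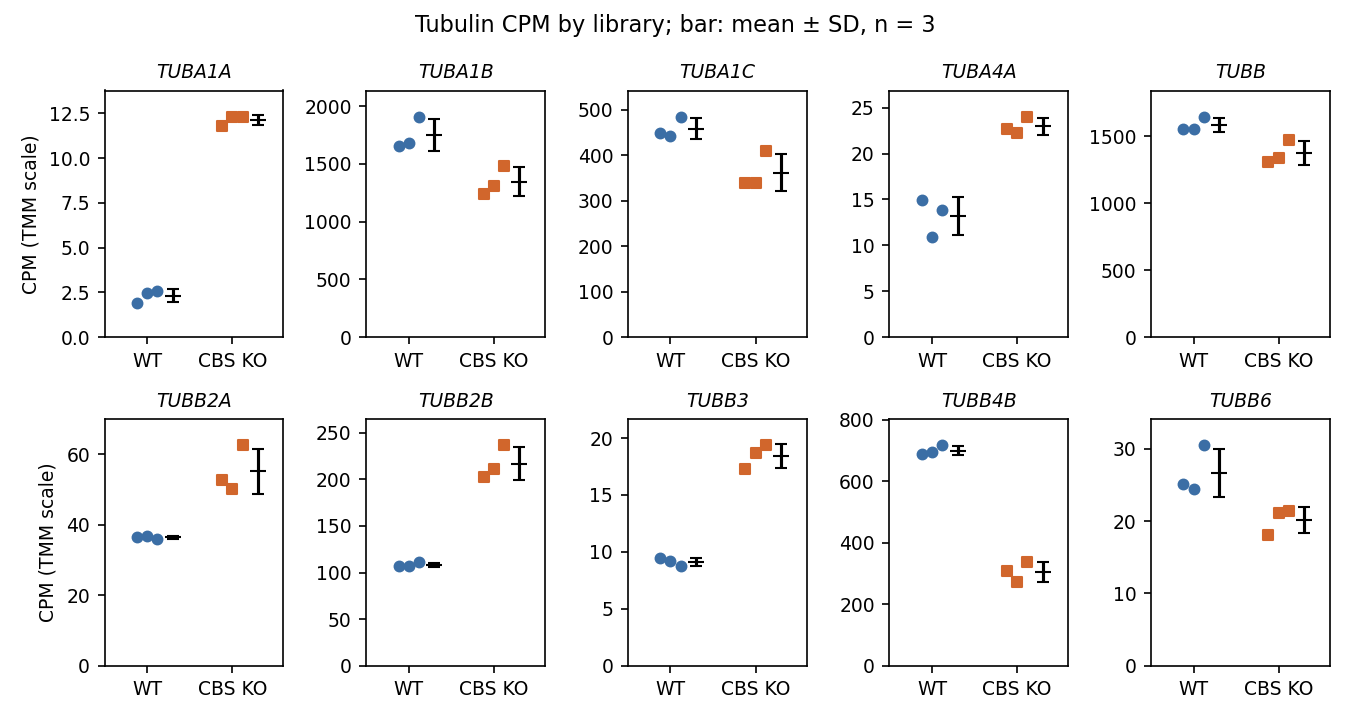
CPM on the TMM scale (axes start at 0) for each gene in every library, with mean ± SD beside the points (n = 3 in each group). Within each panel the WT and CBS KO points do not overlap; TUBA1A is furthest apart and TUBB closest.

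Pools were summed over the 4 alpha and 6 beta genes followed here. Within the beta pool the largest move in share was that of TUBB4B, which gave 39.7, 40.0 and 39.4% of summed beta-tubulin TPM in WT and 23.8, 21.1 and 23.0% in CBS KO. TUBB2B went from 4.78 ± 0.02 to 12.5 ± 0.32%, TUBB2A from 1.98 ± 0.08 to 3.88 ± 0.18%, TUBB3 from 0.46 ± 0.03 to 1.23 ± 0.07% and TUBB from 51.6 ± 0.32 to 58.3 ± 1.07%. TUBB thus fell as a transcript and held a larger share of the beta pool, while TUBB6 kept near its share, at 1.48 ± 0.12 and 1.49 ± 0.10%. In the alpha pool TUBA1B held 83.7 ± 0.49% in WT and 81.8 ± 0.61% in CBS KO and TUBA1C 15.6 ± 0.46 and 16.1 ± 0.60%. TUBA1A went from 0.10 ± 0.01 to 0.69 ± 0.06% and TUBA4A from 0.59 ± 0.10 to 1.40 ± 0.12%. Shares within a library do not depend on the scaling between libraries. They carry no test here, since with 3 libraries in each group an exact two-sided permutation test cannot go below p = 0.10.

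**Figure D3:**
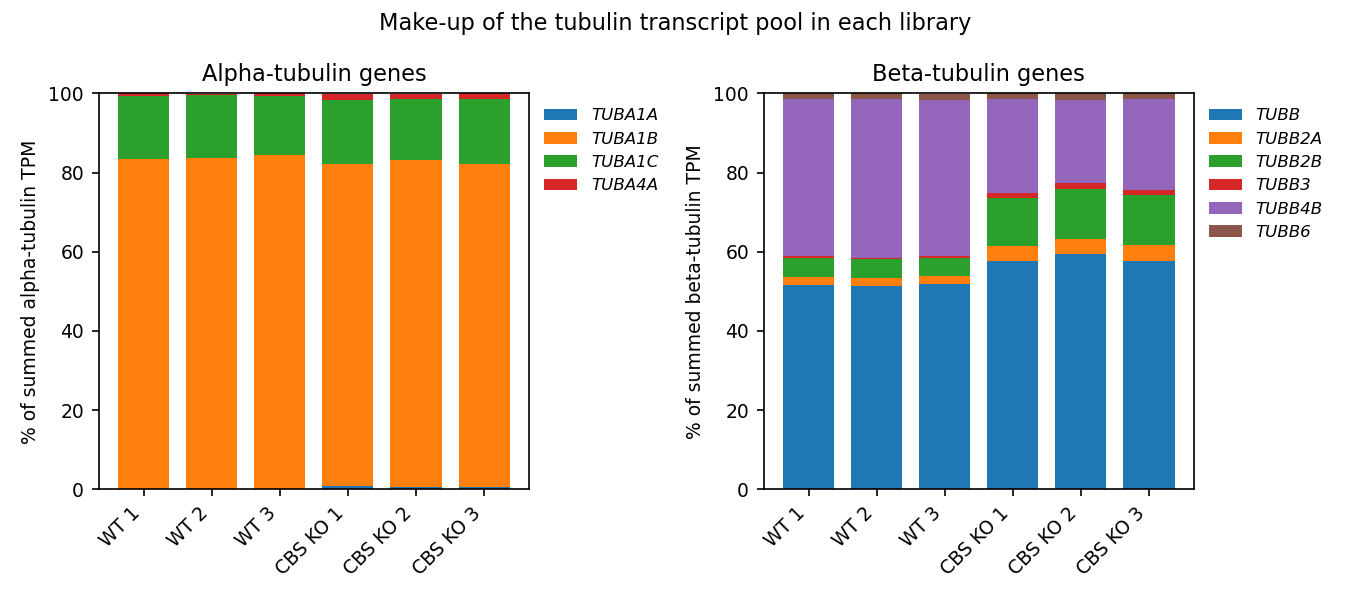
Stacked bars give each gene's percent of the summed alpha-tubulin TPM (left) and beta-tubulin TPM (right) in the 6 libraries. TUBB4B takes 39.4 to 40.0% of the beta pool in WT and 21.1 to 23.8% in CBS KO, and TUBB2B and TUBB take larger parts, while TUBA1B holds more than 80% of the alpha pool throughout.

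Summed over the 10 genes, tubulin transcripts were 5309, 5351 and 5820 TPM in WT and 2868, 2746 and 2901 TPM in CBS KO, 1.94-fold lower. On the TMM scale the sum was 4546, 4566 and 4955 CPM in WT against 3519, 3591 and 4080 CPM, 1.26-fold lower. These units differ both in scaling between libraries and in weighting by length, and the part of each was not tested. The log2 ratio of the sum was -0.33 in CPM and -0.95 in TPM. Single genes shifted too, from -0.38 with TMM to -0.97 with TPM for TUBA1B and from -0.21 to -0.79 for TUBB. The direction of the sum was the same in both units. The ratio of summed alpha to summed beta TPM was 1.13 ± 0.05 in WT and 1.16 ± 0.03 in CBS KO, with overlapping libraries. The 5 genes that rose made up 3.77 ± 0.14% of the summed TPM in WT and 9.29 ± 0.06% in CBS KO. That direction follows from their choice; the measurement is how small their part was in both groups.

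**Figure D4:**
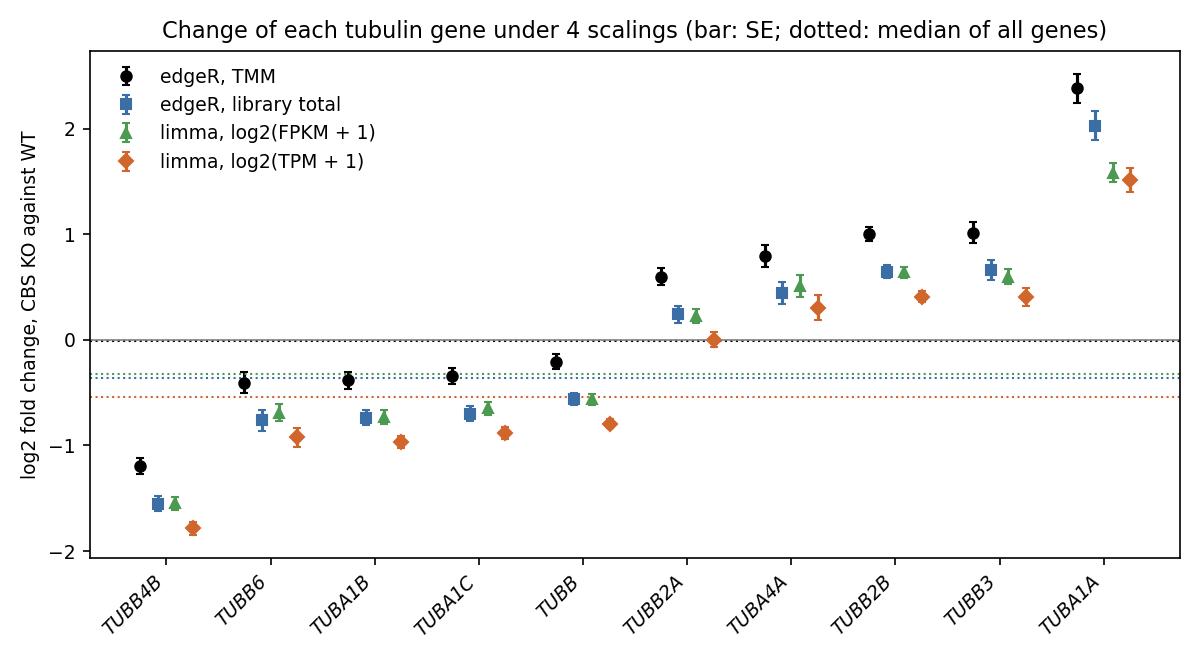
Log2 fold change of each gene with its SE in 4 fits (edgeR with TMM, edgeR with library totals, limma on log2(FPKM + 1), limma on log2(TPM + 1)); dotted lines mark the median of all genes in the same fit. TUBA1A is the highest and TUBB4B the lowest in each fit, every point lies lower with TPM than with TMM, and TUBB2A reaches 0 with TPM.

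Over the 10915 tested genes averaging 5 CPM or more, the ones whose log2 CPM profile over the 6 libraries lay nearest to that of TUBA1B were MRPL28 (Euclidean distance 0.056), PRMT1 (0.063) and SNRPD1 (0.063). Nearest to TUBB were MYBL2 (0.033), DLG3 (0.044) and BTBD6 (0.046). The design has 1 contrast, so any gene with a similar small fall can take such a place.

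Of 14 other tubulin genes 11 were tested, 3 called higher and 4 lower (median log2 fold change -0.23, against -0.01 for all genes). With TPM 2 of 10 were higher and 7 lower (median -0.55, against -0.54). Over all genes 38.4% were called higher and 38.9% lower with TMM, and 15.3 and 67.6% with TPM. The count of lower genes was 2 among those averaging at least 5 CPM and 9 with unfiltered TPM. The gamma-tubulins, from which microtubules are nucleated, went apart: TUBG2 rose 2.88-fold from 40.7 ± 3.47 to 117 ± 8.61 CPM (adjusted p = 2.28e-11), and TUBG1 fell 1.40-fold from 102 ± 4.82 to 72.5 ± 4.26 CPM (adjusted p = 4.1e-06). The deposited counts of TUBG1 and TUBG2 were whole numbers in 0 libraries, and what part misassigned reads had was not tested. TUBE1 and TUBD1, epsilon- and delta-tubulin of the centriole, also went apart, at 1.95-fold higher and 2.06-fold lower. The remaining alpha and beta genes summed to 26.1 to 28.5 CPM in WT and 21.6 to 26.6 CPM in CBS KO. Most abundant of them was TUBB8B, named after its value was seen, at 14.1 ± 0.93 and 12.4 ± 1.62 CPM (14.9 ± 0.78 and 9.85 ± 0.74 TPM). It was not called with TMM. TUBB8B and the rest are not part of the pool shares above. TUBB1, the platelet isotype, named after its value was seen, had 28 counts over the WT libraries and 3 over the CBS KO libraries and was not tested.

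New tubulin is handed by prefoldin to the chaperonin CCT and then joined into dimers by the cofactors TBCA to TBCE. Of 21 such genes 9 rose, 9 fell and 3 were not called (median -0.01), beside 38.4% of all genes higher and 38.9% lower. With TPM 3 were higher and 14 lower, beside 15.3 and 67.6% of all genes. Prefoldin subunits were divided, with PFDN2 2.22-fold, PFDN4 2.15-fold and VBP1 2.04-fold higher and PFDN6 1.85-fold lower. The cofactors TBCD, which holds beta-tubulin, and TBCE, which holds alpha-tubulin, fell 2.49-fold (from 121 ± 3.89 to 48.4 ± 4.10 CPM, adjusted p = 4.6e-11) and 1.82-fold (adjusted p = 3.52e-08).

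Of 12 genes of tubulin mRNA autoregulation and the CCR4-NOT deadenylase complex that it employs, 5 rose, 4 fell and 3 were not called (median 0.05). With TPM 2 were higher and 8 lower. The shares of all genes were 38.4% higher and 38.9% lower with TMM, and 15.3 and 67.6% with TPM. TTC5, which binds the opening residues printed above, fell 1.49-fold from 19.8 ± 0.52 to 13.3 ± 1.47 CPM (adjusted p = 3.63e-05). SCAPER, which links TTC5 to the complex and was named after its value was seen, was 1.42-fold higher with TMM (adjusted p = 6.2e-05) and not called with TPM (8.13 ± 0.86 and 7.43 ± 0.93 TPM, adjusted p = 0.35 by limma). The deadenylases CNOT6L, CNOT7 and CNOT8 rose 2.48-fold, 1.88-fold and 1.54-fold, the last not called with TPM. The subunits CNOT2 and CNOT10 fell 1.57-fold and 1.49-fold.

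Enzymes that modify tubulin tails and lysines were higher in 9 of 17 tested cases and lower in 5 (median 0.39), although with TPM 1 was higher and 9 were lower. All genes gave 38.4% higher and 38.9% lower with TMM, and 15.3 and 67.6% with TPM. SVBP, the partner of the vasohibins that remove the last tyrosine, rose 1.83-fold. The vasohibins themselves, named after their values were seen, went apart with TMM. VASH1 fell 2.64-fold from 3.76 ± 0.42 to 1.41 ± 0.39 CPM, and VASH2 rose 1.41-fold (2.69 ± 0.31 and 2.55 ± 0.21 TPM). AGTPBP1, which trims glutamate chains, and TTLL6, which lengthens them, rose 1.73-fold and 1.67-fold with TMM and were not called with TPM. TTLL4 and TTLL12, members of the tyrosine ligase family, fell 1.40-fold and 1.44-fold. Of the same family TTL and TTLL3, named after their values were seen, rose 1.35-fold and 1.57-fold with TMM. In TPM, WT and CBS KO stood at 10.6 ± 1.23 and 9.64 ± 0.86 for TTL and at 20.1 ± 1.53 and 20.6 ± 0.82 for TTLL3. The lysine acetylase ATAT1 fell 1.38-fold (adjusted p = 0.000269). In the gamma-tubulin ring complex and augmin 8 of 22 genes rose and 10 fell (median -0.07), against 2 and 17 with TPM. There MZT1, a small ring complex subunit, rose 2.75-fold, the augmin subunit HAUS6 rose 1.62-fold (not called with TPM), and the augmin subunits HAUS7 and HAUS8 and the ring subunit TUBGCP5 fell 2.70-fold, 2.06-fold and 2.02-fold.

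Microtubule stabilisers and end binders were higher in 11 of 24 tested cases and lower in 4 (median 0.14). Without WT replicate 1 these counts were 7 and 2, without WT replicate 3 the second was also 2, and with TPM they were 2 and 16 of 22. The shares over all genes were 38.4% higher and 38.9% lower with TMM, and 15.3 and 67.6% with TPM. The end-binding proteins MAPRE2 and MAPRE3 rose 5.17-fold (from 2.89 ± 0.25 to 14.95 ± 0.62 CPM, adjusted p = 3.04e-11) and 2.92-fold, and the microtubule-associated protein MAP1A fell 3.46-fold. MAP6 was 1.68-fold higher with TMM and not called with TPM (log2 fold change -0.080, adjusted p = 0.60 by limma). The polymerase CKAP5 fell 1.16-fold, and CLASP2, which binds growing ends, was 1.15-fold lower (adjusted p = 0.0255) and not called with DESeq2 or without WT replicate 1 or 3. Of 11 destabilisers and severing enzymes 6 rose and 3 fell (median 0.33), against 0 and 5 with TPM. The katanin relative KATNAL1 and the stathmin STMN3 rose 1.99-fold and 1.54-fold (neither called with TPM), and the depolymerising kinesin KIF2A was 1.33-fold higher with TMM and not called with TPM (log2 fold change -0.16, adjusted p = 0.15 by limma). The mitotic kinesins KIF18B and KIF2C fell 1.57-fold and 1.19-fold. STMN1, another stathmin, named after its value was seen, was not called with TMM at 170 ± 10.5 and 160 ± 12.6 CPM (adjusted p = 0.254), but was called lower without CBS KO replicate 3 (adjusted p = 0.0113) and with TPM (274 ± 17.1 and 171 ± 0.98 TPM, adjusted p = 1.04e-07 by limma). Motors were divided, with 9 of 27 higher and 10 lower (median 0.004), and 3 and 21 of 25 with TPM. The dynein regulator NDEL1 rose 2.56-fold and the kinesins KIF5B and KIFC3 rose 1.99-fold and 1.76-fold, while the dynein heavy chain DYNC1H1 fell 1.84-fold (from 486 ± 5.85 to 264 ± 21.0 CPM, adjusted p = 1.92e-09), the dynactin subunit DCTN1 2.09-fold and the kinesin KIF13A 1.58-fold.

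The actin cytoskeleton served for comparison. Of 16 genes 8 rose and 5 fell (median 0.24, and -0.40 with TPM, where 4 were higher and 11 lower). Among all genes these shares were 38.4 and 38.9% with TMM, and 15.3 and 67.6% with TPM. The actin-binding peptides TMSB10 and TMSB4X rose 6.08-fold (from 327 ± 5.01 to 1988 ± 265 CPM, adjusted p = 1.65e-13) and 3.26-fold and the tropomyosin TPM2 2.23-fold, and the crosslinkers ACTN1 and ACTN4 and the myosin MYH9 fell 1.46-fold, 1.45-fold and 1.63-fold. The actins ACTB and ACTG1, named after their values were seen, were 1.28-fold and 1.36-fold higher with TMM and called lower with TPM (3562 ± 259 and 3044 ± 159 TPM for ACTB, 2352 ± 183 and 2134 ± 79.8 TPM for ACTG1).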

How the data were processed

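Per the submitters' processing notes, the tools were edgeR, DESeq2, StringTie 2.1.6, HISAT2 2.2.1 and cutadapt 1.9, with GRCh38. What each did, the counting rule, strand and multiple matches: not given in the sources used here. The authors deposited estimated counts per gene (7.12 to 7.43% of values not whole), FPKM and TPM for each library, per the file headers. Counts were rounded, filtered with filterByExpr (13028 genes left), scaled by TMM and tested with edgeR 4.0.16 (quasi-likelihood, robust, no covariate, R 4.3.3) on all 6 libraries, called at an adjusted p under 0.05. Limma 3.58.1 was run on log2(FPKM + 1) and log2(TPM + 1) over genes reaching 1 in 3 libraries, and DESeq2 1.42.0 as a further alternative. List genes named are up to 3 per direction with the largest change, no overlap of libraries and at least 5 CPM in the higher group; others are said to be named after their values were seen, and 1 is not reported here. Members and lists were chosen with earlier results of these data known. Depth limits precision for TUBA1A and the scarce isotypes above all.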

Additional observations from a re-analysis of the deposited data

How the results depend on the processing

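Each of the 10 tubulin genes was refitted under 16 alternatives; of these 160 values 154 kept direction and call. TUBB2A turned to -0.00095 with log2(TPM + 1), with and without a filter, and to -0.0010 with log2(TPM + 0.1), TUBB lost its call without WT replicate 3 or CBS KO replicate 2, and TUBA4A lost it with unfiltered TPM (log2 fold change 0.30, adjusted p = 0.0602). That last setting left 3 tubulin genes higher. Leaving out single libraries gave 5 higher in each case and 4 to 5 lower, and 4744 to 5028 higher and 4818 to 5234 lower among all genes. Over all genes, 4998 were higher and 5062 lower with TMM; 2966 were higher with the library total and 2722 with FPKM, and higher and lower counts were 1878 and 8294 with log2(TPM + 1), 1866 and 8266 with log2(TPM + 0.1), and 2180 and 8812 with unfiltered TPM. The higher share thus moves with the scaling. For other genes whose sign turned with TPM (called lower there for ACTB and, where filtered, ACTG1 alone), the values in the same order (log2(TPM + 1), log2(TPM + 0.1), unfiltered) were -0.080, -0.094 and -0.080 for MAP6, -0.16, -0.17 and -0.16 for KIF2A, -0.080 throughout for KRT8, -0.12, -0.13 and -0.12 for SCAPER, -0.053, -0.097 and -0.053 for SYP (not called with TMM either), -0.23 throughout for ACTB and -0.14 throughout for ACTG1. Same-numbered libraries of the 2 groups deviated together at r = 0.041, 0.017 and 0.022 over all tested genes. Such values cannot settle whether the numbers pair the libraries, since shared handling may touch few genes. With the replicate block 4986 genes were higher and 5058 lower, and 5 tubulin genes each way. Shares of the pools are the same with FPKM as with TPM by construction, apart from rounding, so FPKM is no check of them. With counts, which ignore length, 16 of 20 group means moved by more than their SD. TUBA1A rests on 126 WT counts.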
